A study of Rattus norvegicus with 47 samples.

Results

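The 74 genes described here encode the proteins of the cytosolic ribosome in rat. They were chosen by symbol: Rpl or Rps followed by a number, with an optional a or x, plus Rplp0, Rplp1, Rplp2 and Rpsa. Pseudogenes, provisional loci and genes whose symbol ends in l were left out. The rule matched 77 symbols of the reference table, and 74 of these were among the 15319 genes counted in both regions; Rpl37, Rpl37a and Rps9 were not analysed here. The list holds 44 proteins of the large subunit and 30 of the small subunit. All 74 passed the filter on low counts in both regions.

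The cytosolic ribosome is built in the nucleolus from ribosomal RNA and one copy of most of its proteins, which are therefore made in matched amounts. In mammals most of their messenger RNAs begin with a C followed by a run of pyrimidines, the 5′ terminal oligopyrimidine motif, through which the kinase mTORC1 and the RNA-binding protein LARP1 set how well they are translated. In brain, ribosomes sit in cell bodies and also in dendrites and axons, where local protein synthesis supports synapses.

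The study asked how inhaled PCB52, a polychlorinated biphenyl with chlorine at positions 2, 2′, 5 and 5′, alters gene expression in the adolescent brain. Sprague-Dawley rats breathed PCB52 vapour in a nose-only system for 4 h a day over 28 days, from 42 days of age in females and 39 in males, and sham animals were the controls. RNA came from tissue punches, which hold all cell types of the punched area. Striatum gave 6 libraries of PCB52 females, 6 of sham females, 6 of PCB52 males and 4 of sham males; cerebellum gave 6, 6, 5 and 5 in that order. Libraries are named by group and animal number, and 21 animals gave both regions.

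Total counts ran from 5684508 to 8914523 per striatal library and from 6524400 to 15865054 per cerebellar library. The 74 genes took 1.76 to 4.27% of the counts in striatum and 1.69 to 6.93% in cerebellum. Each region held the markers of its own neurons: the mean of 11 striatal projection neuron markers was 8.28 to 9.48 log2 CPM in striatum and 1.59 to 3.18 in cerebellum, and that of 8 granule cell markers was 1.58 to 6.07 in striatum and 8.84 to 9.74 in cerebellum. CPM are counts scaled to library size, here with the TMM correction. Markers of another tissue exceeded the median of the region by over 2 log2 units in 5 striatal libraries and 1 cerebellar one. These were PCB52 females 14 and 22 and PCB52 male 19 (cortical neurons, with granule cells also in female 22), PCB52 female 20 (choroid plexus) and sham female 12 (olfactory bulb) in striatum, and sham male 1 (choroid plexus) in cerebellum. Transcripts of both sexes (Xist and Eif2s3y both above 3 CPM) were found in 1 striatal library, sham male 3, and in 4 cerebellar ones, sham females 8 and 10 and sham males 9 and 11.

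The start sites show how the members differ at their 5′ end. The 30-base windows below, from RefSeq (build GRCr8), begin 10 bases before the listed start; capitals mark a run of at least 5 C or T that covers the start. They are the stalk genes, some of the genes called between regions, and Rpl17, on which libraries differed.
Rplp0 (chr12:46718371-46718400, minus strand): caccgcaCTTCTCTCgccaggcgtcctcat
Rplp1 (chr8:71290853-71290882, minus strand): cgcatgtgaTCCTTTCCTCagctgccgcca
Rplp2 (chr1:205975911-205975940, plus strand): cgccgccggacgccgccgaggtcgcacgcg
Rps2 (chr10:14251838-14251867, plus strand): TCTTTTTCTTCgggaaaacacgtgagtctg
Rps21 (chr3:187724028-187724057, plus strand): agccaCTTCCTTTCTgtgttctccgtagac
Rpl41 (chr7:1563478-1563507, minus strand): ctcggaagtgacgacaccaagcacgccatt
Rps27a (chr14:107488922-107488951, minus strand): agggcggTTCCTTCgacccggagactcggt
Rpl24 (chr11:58128386-58128415, minus strand): tagggaggagattctctaccctataaggtg
Rpl18 (chr1:105325260-105325289, plus strand): acctggtctagcaggaggcgccatcatggt
Rpl17 (chr18:70856266-70856295, plus strand): ttcgcgCTTCCTCTTCCTgttagcggccag

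The table gave a promoter window, 250 bases before the start and 50 from it on, for 59 of the 74 genes. A run of at least 5 pyrimidines covered the listed start in 36 of these (61%), against 11.7% of 27457 promoters of all genes. A C at the start with pyrimidines at the next 4 bases stood in 22 of the 59 (37.3%), all among those 36, against 2.63% of all promoters. The other motifs were counted apart, so that one promoter can hold several. CCGGAAG, the core bound by ETS-family factors, was on either strand in 19 (32.2%, against 9.22% of all). The TATA box hexamer TATAAA was on either strand in 6 (10.2%, against 14.3%) and the GC box GGGCGG in 34 (57.6%, against 34.9%). A listed start can lie some bases from the one used in brain, so that Rpl41, Rplp2, Rpl24 and Rpl18, whose windows hold no such run at the listed start, cannot be said to lack it.

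The members varied between libraries as a block. The mean of the 74 genes, called the member mean here, had a within-group SD of 0.29 log2 units in striatum and 0.59 in cerebellum. The median SD of a single gene was about the same, 0.30 and 0.60. Once each library's member mean was subtracted, the median SD of a gene, its relative SD, was 0.082 in striatum and 0.075 in cerebellum, and 55 and 58 of the 74 genes were under 0.1. All 74 genes lay above their region's median in 1 striatal and 7 cerebellar libraries, and none of the 74 did in 5 and 5. Both subunits varied together: the mean of the large subunit genes exceeded that of the small subunit genes by 0.014 to 0.132 in striatum and by 0.126 to 0.272 in cerebellum. In bulk tissue fewer cells of a type and less RNA per cell cannot be told apart. Because the genes vary together, a count of members in one direction adds little to the member mean, which is 1 value per library.

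In striatum the member mean of PCB52 females was 7.59 log2 CPM in animal 14, 7.79 in 20, 7.84 in 16, 8.06 in 22, 8.17 in 24 and 8.53 in 18. In sham females it was 8.04 in animal 10, 8.08 in 6, 8.17 in 2, 8.21 in 8, 8.35 in 4 and 8.99 in 12. The groups overlapped: 3 PCB52 females lay below every sham female, and sham female 12 lay above every other striatal library. PCB52 males ran from 7.95 in animal 19 through 8.01 in 23, 8.15 in 15, 8.27 in 17 and 8.32 in 21 to 8.45 in 13. Sham males had 7.96 in animal 1, 8.00 in 11, 8.30 in 3 and 8.43 in 9. The male groups covered nearly the same range.

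In cerebellum the member mean of PCB52 females was 7.56 in animal 14, 7.82 in 22, 8.05 in 24, 8.34 in 18, 9.20 in 16 and 9.40 in 20. In sham females it was 7.85 in animal 4, 8.08 in 10, 8.10 in 8, 8.12 in 2, 8.58 in 6 and 8.62 in 12. The 2 highest PCB52 females stood clear of every sham animal, and the 2 lowest stood below every sham female. PCB52 males had 7.97 in animal 13, 8.43 in 19, 8.51 in 21, 9.26 in 15 and 9.82 in 23. Sham males had 7.60 in animal 1, 7.88 in 11, 8.06 in 7, 8.57 in 3 and 8.66 in 9. Here too the groups overlapped, and animals 15 and 23 lay above every sham library.

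**Figure D1:**
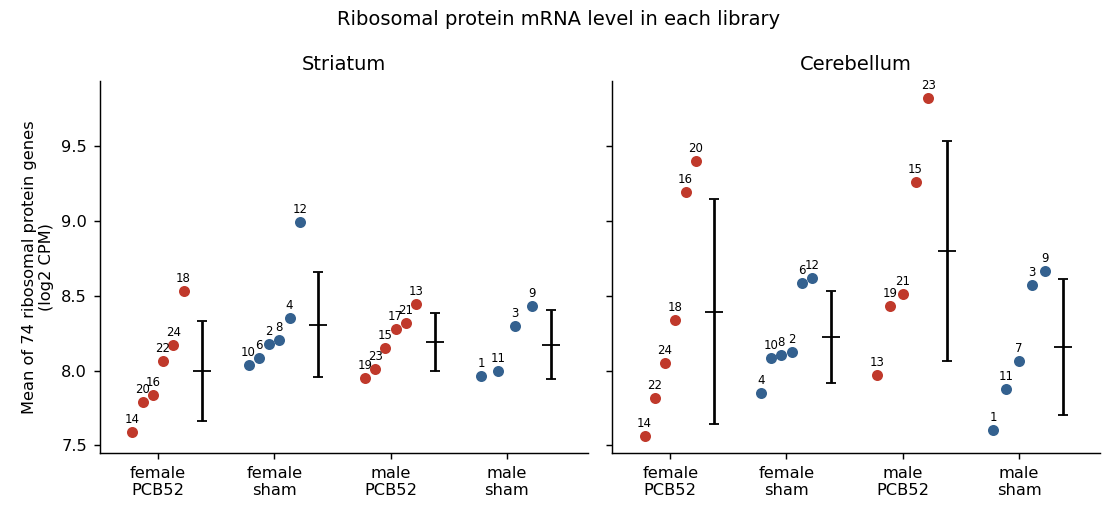
Mean log2 CPM of the 74 ribosomal protein genes in each library (y axis), by region, sex and treatment; points carry the animal number, and bars show the group mean ± SD. PCB52 and sham libraries overlap in every pair, sham female 12 (8.99) is the highest striatal library, and PCB52 animals 16, 20, 15 and 23 (9.20 to 9.82) are the highest cerebellar ones.

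The first comparison asked whether PCB52 altered the members in the striatum of each sex. In females all 74 had a negative fitted difference (50.4% of the 12142 genes tested did), with a median log2 fold change of -0.32 against -0.0024 over all genes. None passed an adjusted p of 0.05 in edgeR's quasi-likelihood test, in which 0% of all genes were called. At an unadjusted p under 0.05 there were 24 members, all lower, against 6.33% of all genes on that side. DESeq2 called 23 of all genes in this comparison. In males the median was 0.018, with 41 members higher and 33 lower (50.1% and 49.9% of all genes), and no member reached an unadjusted p under 0.05 on either side (0.478% of all genes did so higher and 0.42% lower; 0% passed after adjustment).

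Of the stalk proteins, which recruit translation factors to the large subunit, Rplp1 and Rplp2 had some of the larger striatal differences in females, and Rplp0 lay near the member median. Rplp1 ran from 535 to 1203 CPM with a median of 765 in PCB52 females, and from 860 to 1683 with a median of 948 in sham females. Rplp2 ran from 346.8 to 540 CPM (median 437) in PCB52 females and from 463 to 850 (median 527) in sham females. The ranges overlapped for both genes, and the highest value was in each case that of sham female 12. The fitted log2 fold changes were -0.42 ± 0.18 (SE) for Rplp1, with an adjusted p of 0.346 in edgeR's test, and -0.39 ± 0.15 for Rplp2, with 0.324. For Rplp0, which anchors the other stalk proteins, the difference was -0.31 ± 0.16 (adjusted p = 0.387).

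Outside the stalk the differences in striatal females had the same sign and similar sizes. Rps26, a small subunit protein at the messenger RNA exit site, had -0.44 ± 0.18 (edgeR adjusted p = 0.340), and the large subunit protein Rpl9 had -0.38 ± 0.16 (0.343). The most negative was Rps27 at -0.44 ± 0.20 (0.357), and the least was Rps21 at -0.18 ± 0.22 (0.686). Rps6, the small subunit protein phosphorylated by S6 kinases downstream of mTORC1, ran from 669 to 1083 CPM (median 741) in PCB52 females and from 795 to 1448 (median 899) in sham females, a difference of -0.26 ± 0.15. Rpsa, also known as the laminin receptor, had -0.30 ± 0.16, and Rpl3, which lies near the peptidyl transferase centre, -0.29 ± 0.13. None of these passed the threshold. In males the gene of lowest p was Rpl17 at -0.28 ± 0.19, and Rpl35a (0.19 ± 0.21) was the highest (edgeR adjusted p = 1.00 for both).

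The negative median in striatal females depended on which libraries were kept, those with markers of other tissue among them. It was -0.13 without sham female 12. The count of 24 members at an unadjusted p under 0.05 was 1 without that library or without PCB52 female 14, and reached 72 without PCB52 female 18. Without the 5 striatal libraries that held markers of another tissue, which left 3 PCB52 and 5 sham females, the median was 0.028, with 24 of 74 members lower. Those left out include the highest sham female, 12, and the PCB52 females lowest in member mean, 14 and 20. The mean of the choroid plexus markers was 8.10 log2 CPM in PCB52 female 20 and 0.752 to 1.963 in the other 5 PCB52 females, against 0.725 to 2.00 in sham females. The part of other tissue in the member difference was not tested beyond leaving these libraries out.

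The female effect minus the male effect in striatum had a median of -0.33, with all 74 members negative (50.8% of all genes). The most negative was Rpl35a at -0.62 ± 0.28, followed by Rps27 at -0.57 ± 0.30, both with an adjusted p of 0.914 in edgeR's test, in which 0% of all genes passed. Rpl17 was nearest to 0 at -0.12 ± 0.26. Without the libraries holding other tissue the median was -0.027, and without sham female 12 alone it was -0.15.

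In cerebellum the members' differences in edgeR's fit were positive in both sexes. In females the sign of the median turned with limma, as given below. In females all 74 members were positive (55% of the 11690 genes tested were), with a median of 0.27 against 0.019 over all genes. None reached an unadjusted p under 0.05 (1.64% of all genes did on that side), and 0% of genes passed after adjustment. In males all 74 were positive (50.7% of all genes), with a median of 0.75 against 0.0058. Of these, 37 reached an unadjusted p under 0.05, against 9.13% of all genes on that side, and none passed an adjusted p of 0.05 in edgeR's test (0% of all genes; DESeq2 called 1). With the sexes averaged the median was 0.51, and 48 members reached an unadjusted p under 0.05, against 9.9% of all genes on that side, while 0% passed after adjustment.

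Rpl21, a large subunit protein, had the greatest difference in cerebellar males. It had 223 to 862 CPM with a median of 346.7 in PCB52 males, and 161 to 342 with a median of 231 in sham males. The ranges overlapped, with the highest values in PCB52 animals 15 and 23. The log2 fold change was 0.90 ± 0.36, with an adjusted p of 0.313 in edgeR's test. Rps4x, the X-linked small subunit protein, had 215 to 792 CPM (median 332.4) in PCB52 males and 167 to 341.4 (median 239) in sham males, a difference of 0.83 ± 0.34. Rpl7 had 0.78 ± 0.33, Rplp1 0.84 ± 0.37, Rpsa 0.73 ± 0.32, Rps6 0.69 ± 0.33, Rplp0 0.66 ± 0.32 and Rpl3 0.65 ± 0.28, all with the same adjusted p of 0.313. Rpl17 was the lowest at 0.30 ± 0.41 (0.617).

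In cerebellar females Rps29 had the highest difference, 0.51 ± 0.35, with 100 to 430 CPM (median 187) in PCB52 animals and 135 to 213 (median 147) in sham animals. The PCB52 range enclosed the whole sham range. Rps21 (0.49 ± 0.35) and Rps28 (0.47 ± 0.34) came next, and Rpl3 was lowest at 0.10 ± 0.25 (edgeR adjusted p = 1.00 for each). The female effect minus the male effect had a median of -0.47; Rpl3 had -0.55 ± 0.37, Rpl26 -0.67 ± 0.50 and Rps4x -0.61 ± 0.45, each with an adjusted p of 0.774 in edgeR's test (0% of all genes passed).

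The cerebellar differences rested on few libraries and on the tool. With limma the female median was -0.024, with 50 members lower, and the male median was 0.41, with 21 members at an unadjusted p under 0.05. In edgeR's fit the female median was 0.025, with 23 members lower, without PCB52 female 20, and 0.12 without PCB52 female 16. The male median was 0.41 without PCB52 male 23, with no member at an unadjusted p under 0.05, and 0.66 without PCB52 male 15, with 2. Without the choroid plexus library, sham male 1, it was 0.62, with no member at that level, whereas 66 reached it without PCB52 male 13. With the sexes averaged the count of 48 was 0 without PCB52 female 20 or PCB52 male 23, and 72 without PCB52 female 14 or PCB52 male 13. The female minus male median was -0.71 without PCB52 female 20 and -0.14 without PCB52 male 23. The 4 cerebellar libraries with transcripts of both sexes were all from sham animals, so they lay on 1 side of each PCB52 comparison. The member medians without them are not given here.

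**Figure D2:**
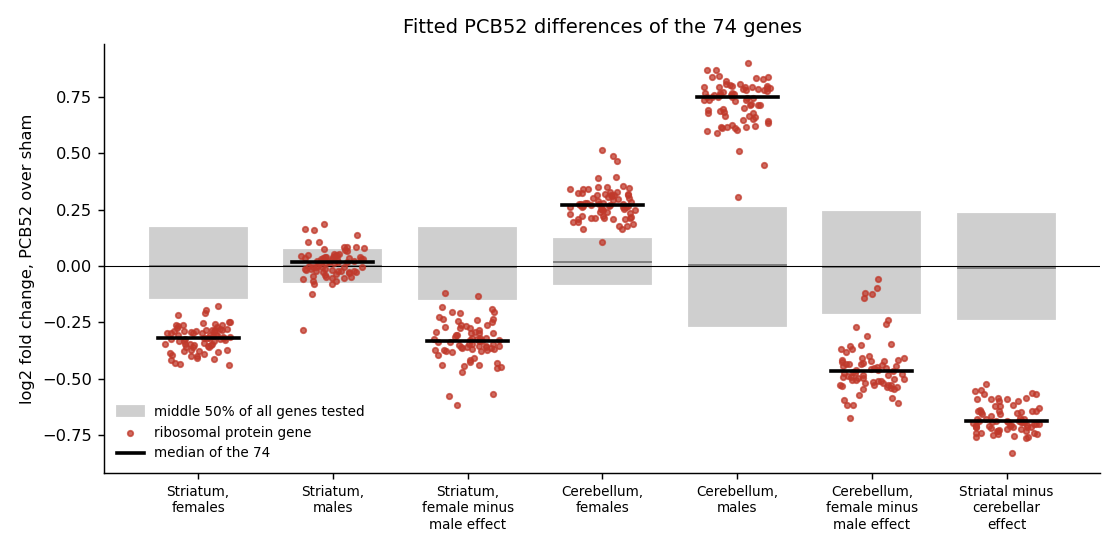
Fitted log2 fold changes of the 74 genes (points) with their median (black line), PCB52 over sham for each sex and region, and the differences between those effects; grey boxes span the middle 50% of all genes tested. The points lie below 0 in striatal females (median -0.32), around 0 in striatal males (0.018), and above 0 in cerebellar females (0.27) and males (0.75).

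Other genes of translation and energy metabolism were set beside the members in the same fits. They are given for striatal females and cerebellar males, the sex with the larger member difference in each region. Values for the other sex, or with libraries left out, are not given here. Of all genes tested, 50.4% were lower in striatal PCB52 females and 50.7% higher in cerebellar PCB52 males. The members' relatives outside the rule include Fau, whose product is a ubiquitin-like fusion with a ribosomal protein, and Rack1, a scaffold on the small subunit. All 8 such genes tested were lower in striatal PCB52 females (median -0.32) and all 8 were higher in cerebellar PCB52 males (median 0.71). Of 18 elongation factors and other genes with oligopyrimidine starts, 17 had negative differences in striatal females (median -0.22) and 16 positive ones in cerebellar males (median 0.44). Eef1a1, which delivers aminoacyl-tRNA to the ribosome, had -0.21 ± 0.12 and 0.52 ± 0.23 in those comparisons. None of the genes in these lists passed an adjusted p of 0.05 (0% of all genes in both comparisons).

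Genes of mitochondrial energy metabolism and translation had differences mostly of the same sign as the members. All 38 oxidative phosphorylation genes tested were lower in striatal PCB52 females (median -0.26), and 37 of 38 were higher in cerebellar PCB52 males (median 0.57). Of 67 mitochondrial ribosomal protein genes, 65 were lower in striatal PCB52 females (median -0.20) and all 67 were higher in cerebellar PCB52 males (median 0.49). Ribosome assembly factors differed less, with medians of -0.094 over 24 genes in striatal females and 0.045 in cerebellar males. The mTORC1 pathway had 9 genes higher and 9 lower in both comparisons, with medians of 0.024 and 0.043. Genes of the amino acid and unfolded protein stress response had medians of -0.033 and 0.26 over 11 genes, and 10 p53 targets, which respond to faulty ribosome assembly, had -0.15 and 0.037. No gene of these lists was called.

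The same libraries stood out on the oxidative phosphorylation list. The 4 cerebellar libraries with the highest member mean, PCB52 females 16 and 20 and PCB52 males 15 and 23, had oxidative phosphorylation means of 8.20, 8.27, 8.17 and 8.57 log2 CPM, and no other cerebellar library exceeded 7.77. Their granule cell marker means were 8.85, 8.86, 9.05 and 8.84, at the low end of the cerebellar range of 8.84 to 9.74. Their astrocyte marker means were 7.30, 7.15, 7.07 and 6.97, the lowest of the region, whose median was 7.60. In striatum, sham female 12 had an oxidative phosphorylation mean of 7.77 and the lowest astrocyte mean, 7.64, against a regional median of 8.34. Oligodendrocyte, microglia, endothelium, Purkinje and general neuron markers, and the other gene lists, are not given by library here. The part of cell makeup or RNA quality in the member mean was not tested.

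**Figure D3:**
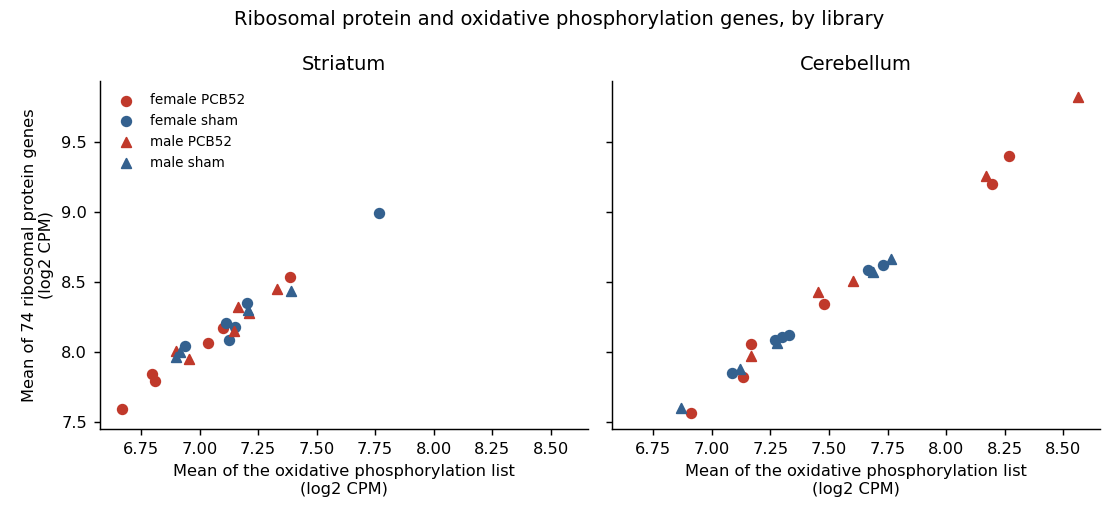
Member mean (y axis) against the mean of the oxidative phosphorylation genes (x axis), both in log2 CPM, 1 point per library, by region, sex and treatment. Libraries high on one list are high on the other, from sham female 12 in striatum (7.77 and 8.99) to PCB52 male 23 in cerebellum (8.57 and 9.82).

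The difference between the striatal and the cerebellar effect of PCB52, with the sexes averaged, had a median of -0.69 over the members, against -0.0076 over the 12446 genes tested. All 74 were negative (50.9% of all genes), from -0.83 ± 0.30 for Rplp1 to -0.52 ± 0.21 for Rpl4. At an unadjusted p under 0.05 there were 68 members, all lower, against 13.8% of all genes on that side. None passed an adjusted p of 0.05 in edgeR's test (0% of all genes; adjusted p 0.268 for Rplp1 and for Rplp2). With the animal as a replicate block the median was -0.55 and 14 members reached an unadjusted p under 0.05. Without the libraries holding other tissue it was -0.43 and none did, and without cerebellar PCB52 male 23 it was -0.52 and 26 did. The share of all genes at that level is not given here for the block fit or with libraries left out. The counts of those fits thus cannot be set against it.

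Between females and males, with treatments averaged, the members had medians of -0.0059 in striatum (32 higher and 42 lower, against 52.8% and 47.2% of all genes) and -0.17 in cerebellum (73 lower, against 48.3% of all genes, with -0.29 without PCB52 female 20 and -0.0098 without PCB52 male 23). No member passed the threshold in edgeR's test, in which 0.0494% of all genes in striatum and 0.0257% in cerebellum did. Rpl17 had the one striatal difference at an unadjusted p under 0.05, 0.39 ± 0.13 with an adjusted p of 1.00 in edgeR's test (2.05% of all genes reached that level on the higher side).

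The regions themselves differed in most genes: 80.9% of the 12446 genes tested were called between striatum and cerebellum, 38.5% higher and 42.4% lower in striatum. Of the members 45 were called, 4 higher and 41 lower, with a median of -0.35 against -0.043 over all genes. The share of members called was thus below that of all genes. With the animal as a replicate block, since 21 animals gave both regions, 4 members were called higher and 34 lower, with a median of -0.26. That fit tested 12435 genes, and its share of all genes called is not given here. The highest cerebellar libraries were of PCB52 animals, although other PCB52 libraries were among the lowest there. The sham and the PCB52 animals were therefore also compared apart, as contrasts of the fit without the block. In sham animals 37 members were higher and 37 lower in striatum, with a median of 0.0015, and 16 were called, 10 higher and 6 lower (69.8% of all genes were called, 34.3% higher and 35.5% lower). In PCB52 animals the median was -0.68, with 1 called higher and 58 lower (76.9% of all genes, 36.5% higher and 40.4% lower).

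Rplp1, the acidic stalk protein, was the member most raised in striatum. In sham animals it had 860 to 1683 CPM in striatal females and 770 to 1206 in striatal males, against 282 to 488 in cerebellar females and 220 to 486 in cerebellar males. The regions did not overlap in sham animals. Its log2 difference was 1.499 ± 0.22 in sham animals (edgeR adjusted p = 1.15e-07), 0.67 ± 0.21 in PCB52 animals (0.00372), and 1.08 ± 0.15 over both (2.45e-08). Its partner Rplp2 had 0.57 ± 0.20 in sham animals (0.00897), while Rplp0, which both bind, had 0.25 ± 0.19 (0.232). In PCB52 animals Rplp2 had -0.17 ± 0.18 (0.416) and Rplp0 -0.39 ± 0.18 (0.0456). Neither was called over both.

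Rpl41, which encodes the smallest ribosomal protein, and Rps2, a small subunit protein near the messenger RNA entry channel, were also higher in striatum. Rpl41 had 379 to 821 CPM in striatal sham females and 397 to 597 in striatal sham males, against 191 to 331 in cerebellar sham females and 176 to 356 in cerebellar sham males. These ranges did not overlap, and the log2 difference in sham animals was 0.92 ± 0.22 (edgeR adjusted p = 2.84e-04). Rps2 had 0.76 ± 0.19 (6.26e-04), Rps21 0.72 ± 0.23 (0.00587) and Rps29 0.66 ± 0.24 (0.0131). In PCB52 animals none of these 4 passed: Rpl41 had 0.20 ± 0.21 (0.372), Rps2 0.08 ± 0.18 (0.715), Rps21 0.10 ± 0.22 (0.672) and Rps29 -0.05 ± 0.22 (0.851). Over both, Rpl41, Rps2 and Rps21 were called higher and Rps29 was not called (0.31 ± 0.16, 0.0823).

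Rpl24, a large subunit protein that forms a bridge to the small subunit, was the member most lowered in striatum. In sham animals it had 202 to 416 CPM in striatal females and 195 to 265 in striatal males, against 311 to 590 in cerebellar females and 273 to 619 in cerebellar males. Among sham animals the regions overlapped only through striatal sham female 12. The log2 difference was -0.88 ± 0.21 in sham animals (edgeR adjusted p = 3.14e-04) and -1.19 ± 0.14 over both (1.09e-09). Rpl18 had -0.58 ± 0.20 (0.00876) in sham animals and Rps27a, made as a fusion with ubiquitin, -0.56 ± 0.22 (0.0269). Rpl4 (-0.39), Rpl12 (-0.46) and Rpl7 (-0.44) were the other members called lower, and Rps27 (0.56), Rps12 (0.46), Rps15 (0.46) and Rpl22 (0.39) were others called higher. In PCB52 animals Rpl4, Rpl12 and Rpl7 were again called lower. There Rps27 (-0.13), Rps12 (-0.29), Rps15 (-0.24) and Rpl22 (-0.17) turned negative and were not called, nor were they called over both.

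The relative level, a gene's log2 CPM minus the library's member mean, takes out the block movement. It was used to compare the same gene between regions, since reads per gene also depend on length. Rplp1 stood 1.44 to 1.80 above the member mean in the 22 striatal libraries (median 1.70) and 0.13 to 0.47 above it in the 22 cerebellar ones (median 0.29). Rpl41 had 0.49 to 0.79 in striatum (median 0.67) and -0.32 to 0.01 in cerebellum (median -0.22). Rpl24 had -0.50 to -0.22 in striatum (median -0.36) and 0.33 to 0.64 in cerebellum (median 0.51). No striatal library reached the cerebellar range for any of these 3 genes. In all, 8 members lay wholly higher in striatum, 14 wholly lower, and 52 overlapped. The share of all genes without overlap is not given here, so these counts cannot be called particular to the members. The median differences ran from -0.86 for Rpl24 to 1.41 for Rplp1, and 11 exceeded 0.5 in size. The sign was the same in PCB52 and in sham animals for 71 of 74 genes.

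**Figure D4:**
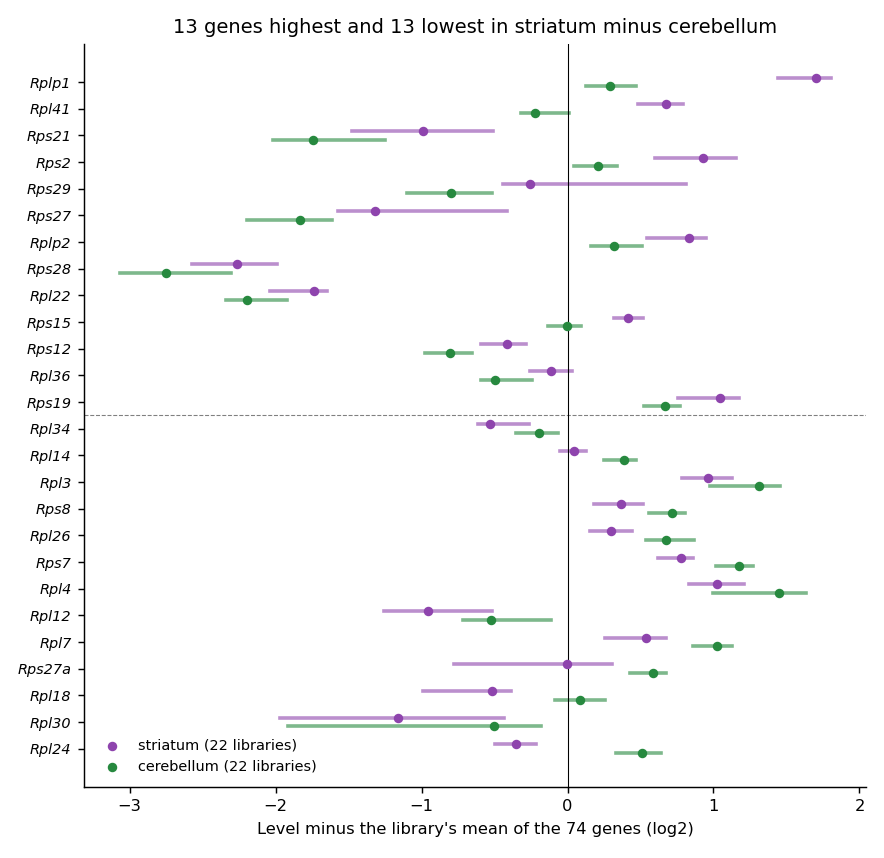
Relative level (x axis, log2 CPM minus the library's mean of the 74 genes) of the 13 genes highest and the 13 lowest in striatum minus cerebellum; points are medians and bars the range over 22 striatal and 22 cerebellar libraries. Rplp1, Rpl41 and Rps2 lie wholly higher in striatum, and Rpl24, Rpl18, Rps27a and Rpl7 wholly lower.

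Start sites of both kinds stood among members higher and members lower in striatum. Members with C and 4 pyrimidines at the listed start had a median difference of 0.05 in sham animals (12 higher and 10 lower in striatum), and the 37 others with a promoter had 0.02 (20 higher and 17 lower). Of the 9 members with a promoter that were called higher in striatal sham animals, 6 hold a run of at least 5 pyrimidines at the start, Rplp1, Rps2 and Rps21 among them, and Rplp2 and Rpl41 are among those that do not. Of the 5 with a promoter that were called lower, 3 hold one, Rps27a among them, and Rpl24 and Rpl18 do not.

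A few members left the block. In striatum 7 genes had a relative SD above 0.2, and in cerebellum 3 did. Rpl30 (0.39 in striatum and 0.41 in cerebellum) and Rpl17 (0.37 and 0.35) led in both regions. In striatum Rps29, Rps27a, Rps21, Rpl38 and Rps27 followed, with 0.22 to 0.27. Without sham female 8 only 3 striatal genes exceeded 0.2: in that library the relative level was 0.81 for Rps29, -0.41 for Rps27 and -1.01 for Rpl38. No other striatal library exceeded 0.13, -1.15 and -1.58 for those genes.

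Rpl17, a large subunit protein at the peptide exit tunnel, has an annotated pseudogene, Rpl17-ps16 (gene 360649), which is outside the rule and may share reads with it; the assignment of reads between them was not tested. Of the counts of the pair, the share on Rpl17-ps16 was 45.9 to 48.9% in 9 striatal libraries, 18.6 to 22.4% in 12, and 0.696% in sham female 8. In cerebellum it was 44.8 to 51.4% in 8 libraries, 19.8 to 26.8% in 12, 7.63% in sham female 8 and 11.6% in sham male 9. The shares fell into separate ranges, read from these same values, with none between them. Of 21 animals with both regions, 20 fell into the same range in both. The exception, sham male 9, whose cerebellar library held transcripts of both sexes, had 46.1% in striatum. The cerebellar library of sham female 8 also held transcripts of both sexes.

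The sum of the pair varied less than either gene. The relative SD was 0.37 in striatum and 0.35 in cerebellum for Rpl17, 1.12 and 0.67 for Rpl17-ps16, and 0.10 in both regions for the sum of their counts. In striatum the range over 40% held 1 of 6 PCB52 females, 1 of 6 sham females, 5 of 6 PCB52 males and 2 of 4 sham males. The Rpl17 differences given above between groups and sexes stand beside these unequal numbers, whose part was not tested, and the values of this gene are uncertain. Whether other members share reads with processed pseudogenes was not tested, and 13 relatives outside the rule were counted under their own identifiers.

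Rpl30, a large subunit protein, also fell into separate ranges, read from these same values, which followed the animal in most cases. Its relative level in striatum was -0.79 to -0.43 in 10 of the 21 animals, -1.38 to -1.13 in 10, and -1.97 in sham female 2. In cerebellum it was -0.62 to -0.18 in 12, -0.98 to -0.90 in 8, and -1.92 in sham female 2. That animal had 73.5 CPM in striatum and 73.6 in cerebellum, the lowest of each region. Of the 21 animals 19 fell into the same range in both regions. Sham female 6 did not, nor did sham male 11, whose cerebellar library held transcripts of both sexes. The higher striatal range held 2 of 6 PCB52 females, 2 of 6 sham females, 4 of 5 PCB52 males and 2 of 4 sham males. Since the animals fall into clusters, no correlation across all 21 is given for either gene.

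**Figure D5:**
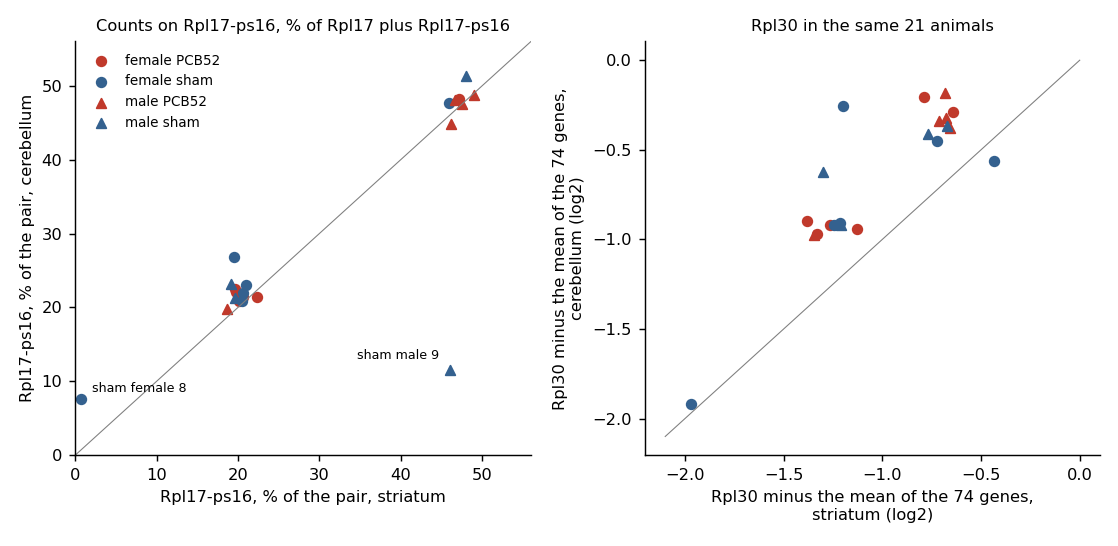
The 21 animals with both regions, striatum on the x axis and cerebellum on the y axis, by sex and treatment; left, counts on Rpl17-ps16 as a percent of Rpl17 plus Rpl17-ps16, and right, relative level of Rpl30 in log2 units, with the line of equal values. Animals cluster near 20% and near 47% on the left, apart from sham female 8 and sham male 9, and sham female 2 lies lowest on the right (-1.97 and -1.92).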

How the data were processed

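Messenger RNA of striatal and cerebellar punches was sequenced. The submitters' processing notes name FastQC, HISAT2 and the genome build rn6, without versions. How reads were assigned to genes, and whether strand was used, is not given in the sources used here; overlapping and antisense genes could not be told apart. Enrichment was by poly(A) capture or ribosomal RNA removal per the labels' protocols, without saying which. Each deposited table gives raw counts of reads for every gene and library of 1 region. Symbols came from a RefSeq table (build GRCr8), which named 15230 of 15319 identifiers (99.4%). Counts of 44 of the 47 labelled samples were used; the other 3 were not analysed here.

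The deposited counts were tested with the quasi-likelihood F-test of edgeR (version 4.0.16, under R 4.3.3; TMM, default filter, robust dispersion), two-sided, with Benjamini-Hochberg adjustment over all genes and a threshold of 0.05. Each region was fitted with 4 group means, and both regions together with 8. The latter fit took the striatal and the cerebellar library of an animal as independent, also between regions in sham and in PCB52 animals. Only the fit with the animal as a replicate block used the pairing. Errors are SE of the fit. Levels are TMM-scaled CPM over all 44 libraries, with a prior count of 2 on the log2 scale. Animals are the replicates.

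Members and gene lists were chosen with earlier results of these data known. Named members were 12 fixed by role, the 3 of lowest p and the extremes of each PCB52 contrast, up to 5 per direction between regions, and those of largest and smallest SD, apart from what is not reported here. Rpl17-ps16, Rpl38, Rpl4 and library 8 were singled out after their values were seen. The ranges of the Rpl17 pair and of Rpl30 were read from the values, so the counts of animals in the same range are descriptive.

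Alternatives were DESeq2 1.42.0, RLE size factors, scaling without the members, no filter, limma 3.58.1 voom with quality weights, only the libraries compared, leaving out each library or the libraries with other tissue or both sexes, and the animal as a replicate block. The region contrasts of sham and of PCB52 animals, and the SD without sham female 8, were added after seeing the data. Those contrasts come from the same fit of both regions with 8 group means. Same-numbered libraries are from the same animal per the titles; their deviations correlated at -0.38 to 0.49 (median 0.091, 21 animals). Every pair of libraries in a group differed beyond counting error (chi-square over its degrees of freedom at least 3.49). The scripts were tested on simulated data.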

Additional observations from a re-analysis of the deposited data

Results flagged for a closer look

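In striatal sham females, animal 12 stood apart as the highest library by a gap that was large for the range of the 6 libraries. Its member mean was 8.99 log2 CPM, and the next library was at 8.35. The same library stood apart in 8 of the named members. Rplp1 was at 10.72 log2 CPM (next 10.03), Rps6 at 10.50 (next 9.91), Rplp0 at 10.02 (next 9.31), Rpl9 at 9.92 (next 9.24) and Rpl3 at 9.86 (next 9.21). Rpl4 was at 9.82 (next 9.32), Rpl7 at 9.58 (next 8.83) and Rpl24 at 8.70 (next 7.91). These 9 values come from 1 library and from genes that move together, out of 224 groups examined. Chance flags about 1 in 20 groups when they are independent, which these groups are not. The library also held olfactory bulb markers at a mean of 6.29 log2 CPM, against a median of 1.87 over striatal libraries. The part of that tissue in these values was not tested.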

How the results depend on the processing

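No member was called for PCB52 by edgeR. Genes called of all, 0 in edgeR for PCB52, were with DESeq2 23 in striatal females, 1 in striatal males, 9 in cerebellar females, 1 in cerebellar males, 19 in cerebellum over both sexes, 4 for the female minus the male effect in cerebellum and 3 for the striatal minus the cerebellar effect. For females minus males in cerebellum they were 3, against 6 with DESeq2, 6 with limma, 5 without libraries of both sexes, and 0 to 4 leaving out 1 library. The median in striatal females was 0.028 and the female minus male effect -0.027 without other tissue. Members called between regions were 45, and 16 in sham animals only.

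Signs changed for Rps21 in striatal females without other tissue (0.24), Rpl3 in cerebellar females with limma (-0.077) and leaving out 1 library (-0.072 to 0.21), and Rpl17 in the female minus male effect, in cerebellum without other tissue (0.13) and leaving out 1 library (-0.35 to 0.20), and in striatum leaving out 1 library (-0.30 to 0.044). With limma the cerebellar female median was -0.024, with 50 members lower, and with only the libraries compared 3 members reached an unadjusted p under 0.05 in striatal females. With the animal as a replicate block 4 members were called higher and 34 lower in striatum (median -0.26), Rplp1 at 1.18 and Rpl24 at -1.09. The share of all genes called in that fit is not given here. Of 298 other named-gene values, 291 kept their direction and side of the threshold. The spread of 4 to 6 libraries a group, 0.59 log2 units in cerebellum, limits what could be detected.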
